A study of Mus musculus with 14 samples.

Results

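The vacuolar H+-ATPase (V-ATPase), the cathepsins and the factors that drive their transcription were followed in caudal intervertebral discs (IVDs) of diabetic mice. The members are the protein-coding genes whose symbols name a V0 or V1 subunit of the V-ATPase, its accessory proteins *Atp6ap1* and *Atp6ap2*, a cathepsin, *Lamp1*, *Lamp2*, *Tfeb*, *Tfe3* or *Mitf*. Membership was set by symbol alone, under a rule chosen with earlier results of these data known. Of the 55487 genes counted, 47 met the rule. These were 13 V1 subunits, 9 V0 subunits, the 2 accessory proteins, 14 cysteine cathepsins, 4 aspartic and serine cathepsins, 2 membrane proteins and 3 factors. The symbol pattern leaves out *Tcirg1*, which encodes the a3 isoform of the V0 a subunit, and its values are given beside those of the members.

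The V-ATPase pumps protons into lysosomes and endosomes and, in cells such as osteoclasts and renal intercalated cells, across the plasma membrane. Its V1 sector in the cytosol hydrolyzes ATP and turns the ring of the V0 sector in the membrane, where the a subunit isoform sets where the pump is placed. The acid it makes activates the cathepsins, proteases that degrade proteins in lysosomes and, when released, collagen and proteoglycans, and the factors TFEB, TFE3 and MITF bind a short promoter motif shared by many lysosomal genes. In cartilage-like tissues cathepsins B, D, K and L are known as matrix-degrading enzymes.

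RNA sequencing compared 2 mouse models of type 2 diabetes, each with its own controls. The db/db mice are homozygous for a mutant leptin receptor and were compared with db/+ heterozygous littermates (n = 3 and 3, all 12 weeks old). The STZ-HFD mice are C57BL/6J mice fed a high-fat diet for 4 to 6 weeks, injected with 100 mg/kg streptozotocin (STZ), a toxin of pancreatic β-cells, and fed the same diet for 12 weeks more (n = 4). Their controls (Con+Veh, n = 4), labelled as wild-type C57BL/6J, received standard chow and the buffer. The labels give the diet as 80% of kcal from fat, which is not the value in the study's methods. All mice were male, both models carry their change in the whole body rather than in disc cells, and 5 tail discs of a mouse were pooled into 1 library, so that fewer cells of a type and less RNA per cell cannot be told apart. The study's methods describe the mice of the STZ-HFD cohort as 12 weeks old, which the weeks of diet follow. The models differ in genotype, age and cohort, and each model was therefore compared with the controls of its own cohort. The difference of the 2 responses spans the cohorts, so that model, age and cohort cannot be told apart in it.

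Libraries held 16076908 to 58943169 counts. The lowest total was that of STZ-HFD replicate 1, which stood apart from the other 13 libraries. It had 3 or more counts for 1584 of 2003 olfactory and vomeronasal receptor genes, against 111 to 256 in the others, and for 19921 protein-coding genes, against 14814 to 16253. Values below are CPM, the counts of a gene relative to the library total, scaled by edgeR's TMM factors, on which 3 counts are worth 0.0431 to 0.163 CPM depending on the library, a floor that covers counting error only. Genes with a CPM above 1 in 3 or more libraries were tested (16915), among them 37 of the 47 members. Markers of chondrocytes and annulus cells, among them *Acan* and *Col2a1*, were counted in every group and summed to 6821 to 25102 CPM in the db cohort and 806 to 4067 CPM in the other. Skeletal muscle markers summed to 2953 to 23604 CPM, so that all libraries also held muscle RNA.

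Levels of different genes were compared as CPM per kb of exon. The length is that of all annotated exons of a gene merged, not of the transcripts expressed, so that orders between genes depend on the annotation. Among V1 subunits, *Atp6v1f*, a small subunit of the central stalk, had the highest median over the 14 libraries at 24.5 CPM per kb (range 6.62 to 47.2). *Atp6v1g1*, a subunit of the outer stalk, followed at 10.5 (range 4.86 to 20.9). *Atp6v1a*, the catalytic A subunit, stood lower at 1.69 (range 0.306 to 2.89). The range of *Atp6v1a* lay below those of the other 2, which overlapped each other. Wherever a V1 subunit tested has a broadly used and a restricted isoform, the broad isoform was higher in every library. *Atp6v1b2* exceeded *Atp6v1b1*, the kidney and inner ear isoform, in 14 of 14 libraries, and the ratio of their medians was 72.7. *Atp6v1c1* exceeded *Atp6v1c2*, and *Atp6v1g1* exceeded the neuronal *Atp6v1g2*, likewise in 14 of 14, with ratios of 36.8 and 13.2.

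Among V0 subunits, *Atp6v0e* had the highest median (14.6 CPM per kb, range 4.77 to 35.8) and *Atp6v0d2*, an isoform induced in osteoclasts, the lowest (0.647, range 0.183 to 2.53). Its counterpart *Atp6v0d1* was higher in 14 of 14 libraries, with a ratio of medians of 16.0. For the a subunit, which anchors the pump in a given membrane, the medians were 8.87 for *Tcirg1* (a3), 7.19 for *Atp6v0a1*, 3.95 for *Atp6v0a2* and 0.761 for *Atp6v0a4* (a4). The a3 and a1 isoforms were not separated, since *Tcirg1* was the higher in 8 of 14 libraries. *Atp6v0a4* was below each of the other isoforms in 14 of 14 libraries. *Atp6ap1*, the accessory protein Ac45, had a median of 24.9 (range 15.9 to 40.4) and *Atp6ap2*, the (pro)renin receptor, one of 5.71 (range 1.97 to 9.39).

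Of the cathepsins, *Ctsb* and *Ctsd* were the most abundant per length, with medians of 27.5 and 22.9 CPM per kb. Their ranges overlapped, from 12.7 to 38.4 and from 13.2 to 45.3, and *Ctsb* was the higher in 6 of 14 libraries. *Ctsa*, the carboxypeptidase also called protective protein, followed at 13.9 and *Ctsz*, a carboxypeptidase, at 8.06. *Ctsk*, the main collagenase of osteoclasts, had 5.31, *Ctsh*, an aminopeptidase, 4.35, *Ctss*, a protease of antigen-presenting cells, 3.54, and *Ctsl*, an endopeptidase that cells can secrete, 2.78. *Lamp1*, an abundant glycoprotein of the lysosomal membrane, was the highest of the members with a median of 74.4 (range 23.8 to 102), above *Lamp2* (16.3, range 10.7 to 27.3) in 14 of 14 libraries. That order rests on the exon lengths of 2675 and 9552 bases. In CPM without length, *Lamp2* was above *Lamp1* in some libraries, such as db/db replicate 1 (260 against 233). It was below *Lamp1* in others, such as db/+ replicate 1 (133 against 272). Among the factors, the order was *Mitf* (3.51), *Tfe3* (1.97) and *Tfeb* (0.960), with *Tfe3* above *Tfeb* in 13 of 14 libraries.

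**Figure D1:**
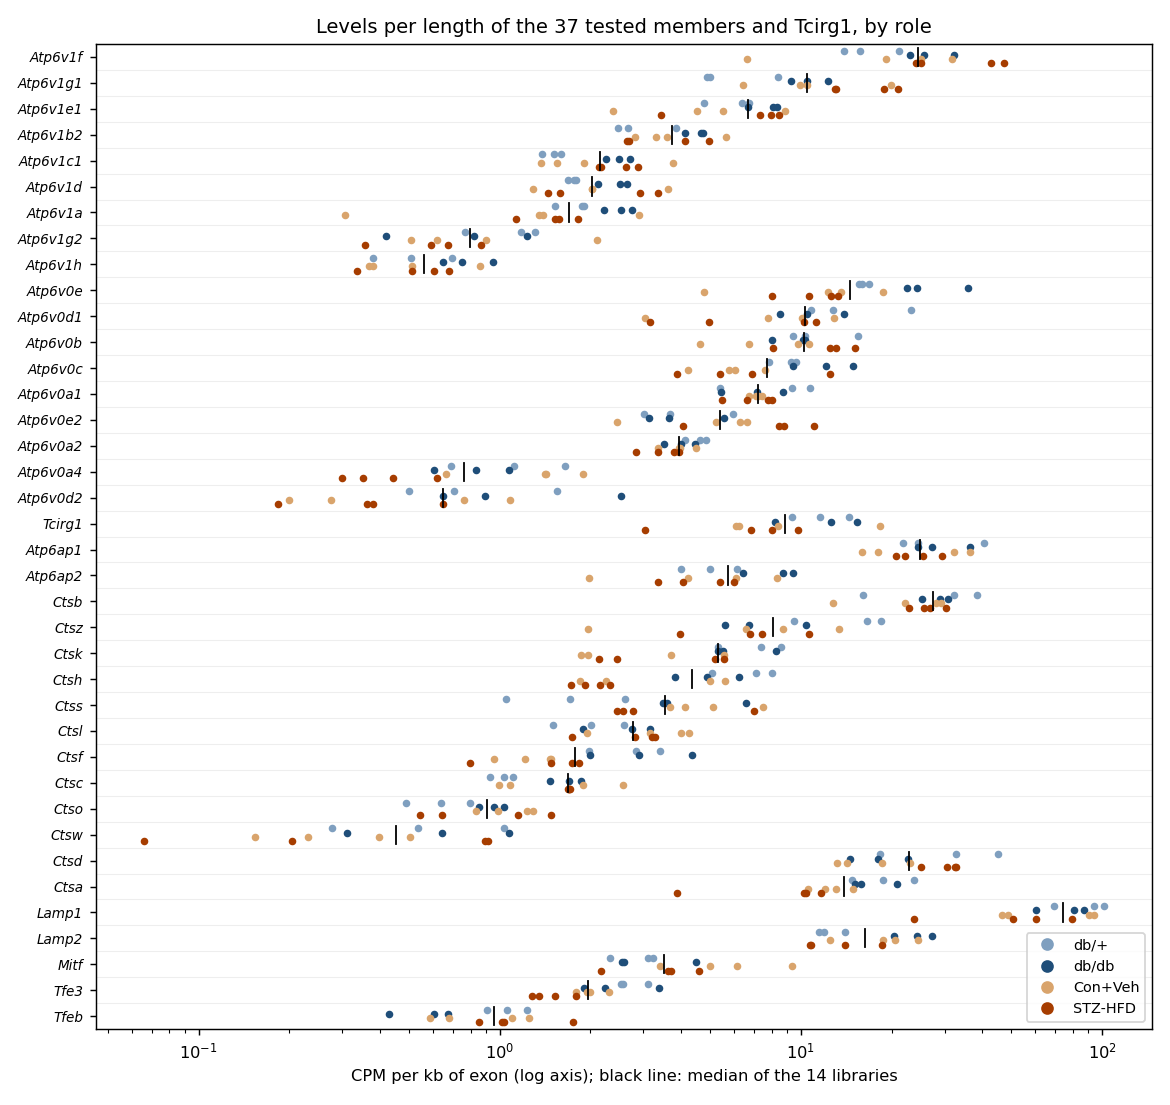
Level of each of the 37 tested members and of *Tcirg1* in the 14 libraries, as TMM-scaled CPM per kb of exon on a log axis, grouped by role and ordered by median. Points are libraries coloured by group and black lines are medians of the 14 libraries. *Lamp1* is the highest, and *Atp6v0a4* lies below *Atp6v0a1*, *Atp6v0a2* and *Tcirg1*.

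The 10 members that were not tested are restricted isoforms and proteases. *Atp6v1b1*, *Atp6v1c2* and *Ctse*, a cathepsin of stomach and immune cells, reached at most 42, 46 and 64 counts in a library. *Ctsg*, a neutrophil granule protease, had at most 2. The other 6 were counted almost entirely in STZ-HFD replicate 1. There the testis V1 subunit *Atp6v1e2* had 120 counts, the kidney subunit *Atp6v1g3* had 40, and the placental cathepsins *Ctsq*, *Ctsm*, *Ctsr* and *Ctsj* had 57, 12, 10 and 4. In the other 13 libraries none of these 6 genes had more than 2 counts. Their sum was 243 counts in STZ-HFD replicate 1 and 0 to 5 in the others, alongside the receptor genes that this library also held. What brought these genes into that library was not tested. The placental cathepsins are close copies of each other on chromosome 13, so that the division of reads among them is uncertain.

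**Figure D2:**
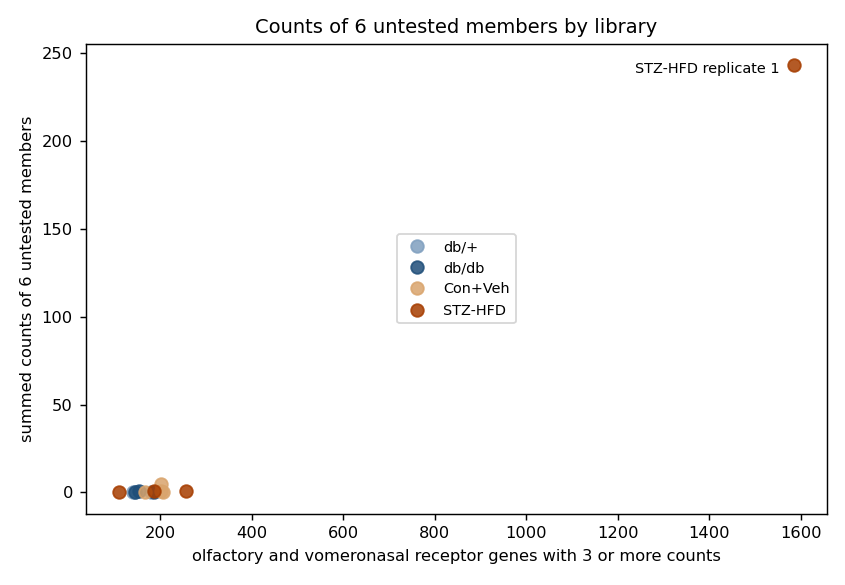
Summed counts of *Ctsq*, *Ctsm*, *Ctsr*, *Ctsj*, *Atp6v1e2* and *Atp6v1g3* in each library (vertical axis) against the number of olfactory and vomeronasal receptor genes with 3 or more counts (horizontal axis), coloured by group. STZ-HFD replicate 1 lies at 243 counts and 1584 receptor genes, and the other 13 libraries lie at 0 to 5 counts.

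The motif bound by TFEB and its relatives was then searched in promoters, because the members include both the factors and their known targets. RefSeq windows of 300 bases on GRCm38.p6, 250 before and 50 after a start, were found for 37 of the 47 members (46 windows). The 10-base motif GTCACGTGAC occurred in 0 of the 46 windows, against 0.326% of all 32851 windows. Its core TCACGTG, read on both strands, occurred in 7 windows (15.2%), against 3.77% of all windows, 5.56% of the 14596 windows of tested genes and 25.0% of the 96 windows of other lysosomal genes. The E-box CACGTG, which lies within the core, occurred in 9 (19.6%, against 7.15% of all windows). The 7 windows belong to 4 V-ATPase subunits, 2 cathepsins and *Lamp1*. The windows of *Atp6v0a4*, *Ctss* and *Lamp2* held no core, which says only that these letters are not in them, and *Ctsh* had no entry. The densest run was that of *Lamp1*, with 4 cores in 53 bases just upstream of its start (chr8:13159088-13159160, plus strand). It is shown with 1 core of each of the other 6 promoters, each on its gene's strand and 5′ to 3′, with the core in capitals on whichever strand it was read. Where 8 letters are capital, the core reads on both strands and the matches overlap.
*Lamp1*, chr8:13159088-13159160, plus strand: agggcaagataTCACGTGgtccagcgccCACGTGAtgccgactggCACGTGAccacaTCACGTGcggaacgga
*Ctsd*, chr7:142387908-142387937, minus strand: tcgcccgcgtcTCACGTGAcccgttgaggg
*Ctsa*, chr2:164833749-164833778, plus strand: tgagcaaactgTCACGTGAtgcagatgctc
*Atp6v0b*, chr4:117887331-117887359, minus strand: gggtcggcgcaTCACGTGcgccggtcagg
*Atp6v0d1*, chr8:105566050-105566079, minus strand: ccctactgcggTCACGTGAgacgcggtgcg
*Atp6v0e*, chr17:26676387-26676416, plus strand: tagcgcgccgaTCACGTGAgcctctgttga
*Atp6v1a*, chr16:44139373-44139402, minus strand: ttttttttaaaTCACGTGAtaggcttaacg
The 7 genes with a core did not move as a block. In db/db their log2 fold changes ran from -0.79 for *Ctsd* to 0.75 for *Atp6v0e*, and in STZ-HFD from -0.65 for *Lamp1* to 0.60 for *Ctsd*, and none passed the test in either model.

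In db/db discs no member passed the test. Of the 37 members tested, 0 were higher and 0 lower than in db/+ at an adjusted p under 0.05 (limma's voomWithQualityWeights, Benjamini-Hochberg over all 16915 genes), where 1.42% of all genes tested passed as higher and 0.508% as lower. At an unadjusted p under 0.05, 9 members were higher and 3 lower, against 10.7% and 10.4% of all genes. DESeq2 and the quasi-likelihood test of edgeR passed 0 members as well. Over all members 21 estimates were higher and 16 lower, against 47.3% and 52.7% of all genes. The V1 subunits leaned to higher values, with 8 of the 9 tested at a higher estimate, a median log2 fold change of 0.58 and 6 whose 3 db/db values all exceeded the 3 db/+ values (14.1% of all genes tested). The median over all genes tested was -0.04. The V0 subunits did not lean with them, with 3 higher and 6 lower (median -0.20), and the cathepsins had 6 higher and 6 lower (median 0.06).

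Among V-ATPase subunits, the largest estimate in db/db was that of *Atp6v1g1* (ENSMUSG00000039105, chromosome 4 from 63544772 to 63550750, plus strand, GRCm38). It had 13.99, 10.5 and 11.8 CPM in db/db and 9.56, 5.67 and 5.52 in db/+. The groups did not overlap, and the log2 fold change was 0.86 (SE 0.28, limma adjusted p = 0.103). *Atp6v1f* (ENSMUSG00000004285, chromosome 6 from 29467718 to 29470512, plus strand) had 27.3, 24.5 and 34.4 CPM against 16.6, 22.4 and 14.8, again without overlap (0.66, SE 0.32, adjusted p = 0.248).

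*Ctss* (ENSMUSG00000038642, chromosome 3 from 95526786 to 95556403, plus strand) had the largest estimate of all members in db/db. Its levels were 8.94, 4.87 and 4.74 CPM in db/db and 3.55, 1.43 and 2.33 in db/+. All db/db values were above all db/+ values, with a fold of 2.67 (log2 1.42, SE 0.36), and the adjusted p of 0.0503 fell just outside the threshold. *Lamp2* (ENSMUSG00000016534, chromosome X from 38401357 to 38456454, minus strand), a membrane protein needed for fusion of autophagosomes with lysosomes and for chaperone-mediated autophagy, was of the same kind. It had 260, 195 and 232 CPM in db/db against 133, 109.8 and 114 in db/+, without overlap, and a fold of 1.91 (log2 0.94, SE 0.24, adjusted p = 0.0523). Over 13 alternative settings, *Ctss* was at an adjusted p under 0.05 in 5 and *Lamp2* in 6, with log2 fold changes of 1.22 to 1.53 and 0.53 to 1.13. The 13 settings include the replicate number as a block, under which far more of all genes passed in db/db than in the reported fit.

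*Tfeb* (ENSMUSG00000023990, chromosome 17 from 47737030 to 47792419, plus strand) had the lowest estimate of the 3 factors in db/db, at 3.43, 2.44 and 3.82 CPM against 6.01, 6.99 and 5.13 in db/+. It was the only member whose db/db values all lay below those of db/+ (11.7% of all genes tested did), with a log2 fold change of -0.94 (SE 0.30, adjusted p = 0.0925). *Ctsz* (ENSMUSG00000016256, chromosome 2 from 174427493 to 174439039, minus strand) had 8.07, 9.68 and 14.97 CPM against 23.9, 26.5 and 13.7. These groups overlapped through db/+ replicate 3 and db/db replicate 3, and the log2 fold change was -0.998 (SE 0.38, adjusted p = 0.151). The 28 members tested that were not named for their estimate within a model or for a passing test ran from -0.79 to 0.75, with no adjusted p below 0.100.

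The db/db estimates followed the GC content of the transcripts. Spearman's rho between GC content and log2 fold change was -0.428 over the 16899 tested genes with a GC value and -0.706 over the 37 members. In STZ-HFD it was -0.078 and 0.18. These are descriptions over genes of the same libraries, with no test. *Lamp2* (40.9% GC) and *Ctss* (45.9%) lay at the GC-poor end, *Ctsz* (57.3%) and *Tfeb* (61.3%) at the GC-rich end. With the GC trend of each library removed, the db/db log2 fold change was 1.23 for *Ctss* (limma adjusted p = 0.085) and 0.53 for *Lamp2* (adjusted p = 0.245). It was -0.46 for *Tfeb* (adjusted p = 0.375) and -0.60 for *Ctsz* (adjusted p = 0.467). The median of the V1 subunits became 0.37 with 8 of 9 still higher, that of the V0 subunits 0.09 with 5 higher and 4 lower, and that of the cathepsins 0.19 with 8 higher and 4 lower. Over all members the split in db/db went from 21 higher and 16 lower to 26 and 11. Whether GC content or a disc response set these values was not tested.

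**Figure D3:**
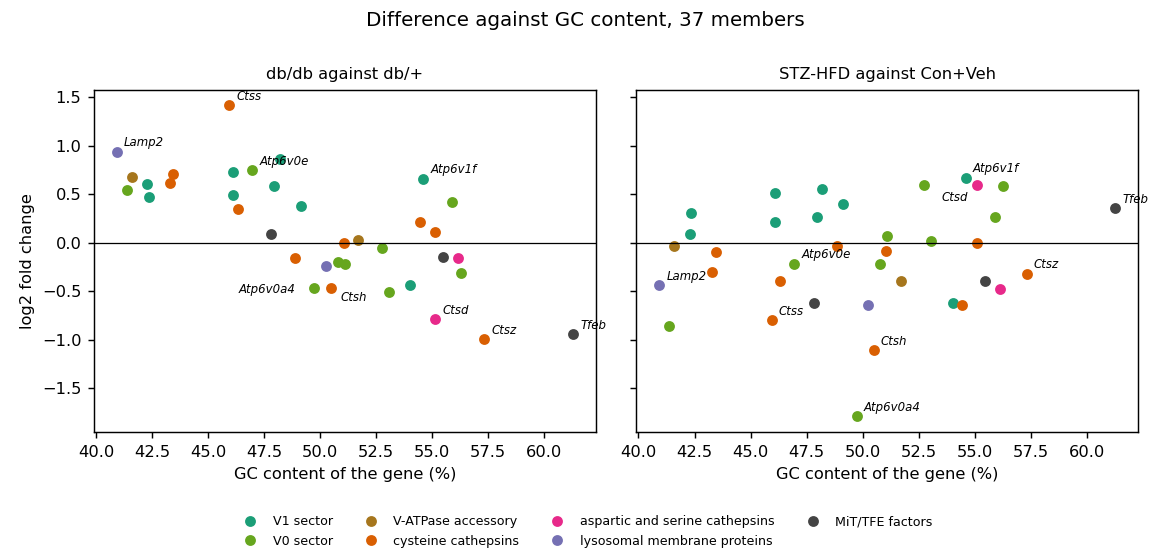
Log2 fold change of each of the 37 tested members (vertical axis) against the GC content of its annotated transcripts in percent (horizontal axis), in db/db (left) and STZ-HFD (right), coloured by role. In db/db the GC-poor *Lamp2* and *Ctss* lie highest and the GC-rich *Tfeb* and *Ctsz* lowest (rho -0.706), and in STZ-HFD no such slope is seen (rho 0.18).

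In STZ-HFD discs 2 members were lower and 0 higher than in Con+Veh. These were 2 of the 37 members tested, where 1.8% of all genes tested passed as lower and 1.65% as higher. Both were also past a log2 fold change of 1 in size, as were 1.31% of all genes. At an unadjusted p under 0.05, 6 members were lower (9.54% of all genes) and 5 higher (8.34%), and of all estimates 21 were lower and 16 higher (52.8% and 47.2% of all genes). The V1 subunits again had 8 of 9 higher estimates, none of which passed (median 0.31), while the V0 subunits had 5 higher and 4 lower (median 0.02). The cathepsins had 10 of 12 lower estimates (median -0.31), 1 of which passed, against a median of -0.04 over all genes. Without STZ-HFD replicate 1 the medians were 0.37, 0.12 and -0.29. The lean of the cathepsins turned with the library weights, since without quality weights 7 of the 12 were higher and 5 lower (median 0.13), and their summed CPM had a ratio of group medians of 1.02. The V1 subunits then had 6 higher and 3 lower (median 0.26) and the V0 subunits 3 higher and 6 lower (median -0.03).

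*Atp6v0a4* (ENSMUSG00000038600, chromosome 6 from 38048483 to 38124586, minus strand) encodes the a4 isoform known from renal intercalated cells and the inner ear. It had 9.40, 3.30, 7.10 and 7.01 CPM in Con+Veh and 3.08, 1.75, 1.49 and 2.20 in STZ-HFD. Every STZ-HFD library was below every Con+Veh library, which held for 2.77% of all genes tested, although STZ-HFD replicate 1 and Con+Veh replicate 2 were close. Its level fell to 0.289 of the control (log2 -1.79, SE 0.43, 95% interval -2.69 to -0.89, adjusted p = 0.0304). The other a isoforms did not pass, with log2 fold changes of 0.10 for *Tcirg1* (SE 0.27, adjusted p = 0.888), 0.07 for *Atp6v0a1* (adjusted p = 0.896) and -0.22 for *Atp6v0a2* (adjusted p = 0.543). The call on *Atp6v0a4* was lost without Con+Veh replicate 3 (adjusted p = 0.315), Con+Veh replicate 4 (0.161), STZ-HFD replicate 3 (0.306) or STZ-HFD replicate 4 (0.115), and was kept without any of the other 10 libraries. With edgeR's quasi-likelihood test the adjusted p was 0.102 and with DESeq2 0.00657.

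*Ctsh* (ENSMUSG00000032359, chromosome 9 from 90054152 to 90076089, plus strand), the aminopeptidase, had 8.31, 10.1, 22.5 and 25.2 CPM in Con+Veh and 7.77, 9.70, 8.67 and 10.5 in STZ-HFD. The groups overlapped, since Con+Veh replicates 1 and 2 lay among the STZ-HFD values and only replicates 3 and 4 were above them. The log2 fold change was -1.11 (SE 0.29, adjusted p = 0.0409). Con+Veh replicates 3 and 4 had the largest quality weights of their group, 3.05 and 1.81 against 0.275 and 0.462 for replicates 1 and 2. With no quality weights the log2 fold change was -0.61 (adjusted p = 0.559), and the call was kept in 6 of the 14 fits that left out a library. It was lost without db/+ replicate 1, db/db replicate 1, Con+Veh replicate 3 or 4 or any of the 4 STZ-HFD libraries (adjusted p = 0.0519 to 0.512).

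The remaining members with the largest estimates in STZ-HFD did not pass. *Ctss* had 4.999, 10.1, 6.96 and 5.59 CPM in Con+Veh against 9.497, 3.34, 3.48 and 3.78, so that only STZ-HFD replicate 1 overlapped the controls (log2 -0.80, SE 0.35, adjusted p = 0.229). *Atp6v0d2* (ENSMUSG00000028238, chromosome 4 from 19876841 to 19922605, minus strand) had 0.543, 0.748, 2.07 and 2.93 CPM against 0.987, 1.03, 0.497 and 1.75, with wide overlap (-0.86, SE 0.80, adjusted p = 0.625). Over the 13 alternatives this estimate ran from -1.84 from transcript totals to -0.029 without quality weights. Its db/db values were 2.42, 6.88 and 1.76 CPM against 1.91, 1.36 and 4.21 in db/+ (0.55, SE 0.52, adjusted p = 0.577). *Atp6v1f* had 7.04, 33.8, 20.4 and 26.7 CPM against 45.3, 26.5, 50.2 and 25.6, with overlap (0.67, SE 0.28, adjusted p = 0.221). Its estimate was 4.49 from transcript totals, 0.64 to 0.91 under the other 12 alternatives and 0.38 without STZ-HFD replicate 3. In db/db it was 1.54 from transcript totals.

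*Ctsd* (ENSMUSG00000007891, chromosome 7 from 142375911 to 142388038, minus strand) is described because it was the only member whose STZ-HFD values all exceeded those of Con+Veh, which 1.97% of all genes tested did, and it was chosen after its values were seen. This main aspartic protease of lysosomes had 31.1, 33.4, 43.6 and 54.3 CPM in Con+Veh and 76.4, 77.2, 71.9 and 58.9 in STZ-HFD (log2 0.60, SE 0.24, adjusted p = 0.196). In db/db it ran the other way, with 42.3, 34.1 and 53.4 CPM against 76.8, 106 and 42.96, and with overlap (-0.79, SE 0.29, adjusted p = 0.134). The 28 members tested that were not named for their estimate within a model, *Ctsd* among them, ran from -0.65 to 0.60 in STZ-HFD, with no adjusted p below 0.165. *Lamp1*, at the lower end of this range, had its lowest value in STZ-HFD replicate 1 (63.6 CPM, against 124.5 to 251 in Con+Veh).

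**Figure D4:**
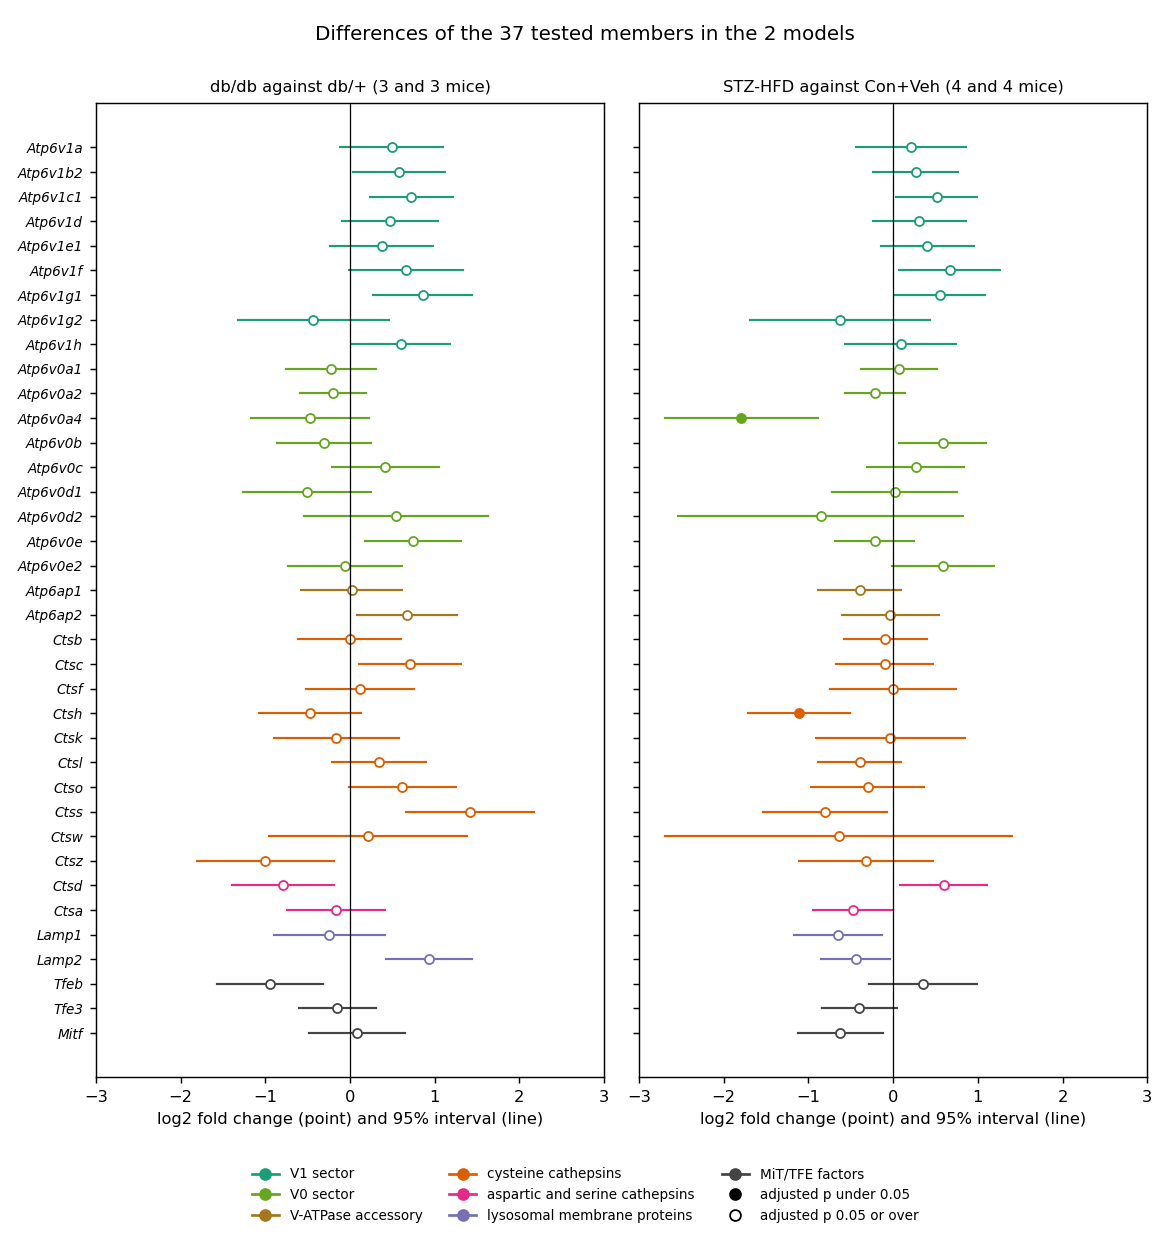
Log2 fold change of the 37 tested members, by role, in db/db against db/+ (left) and STZ-HFD against Con+Veh (right). Points are estimates, lines their 95% intervals and filled points an adjusted p under 0.05, which are *Atp6v0a4* and *Ctsh* in STZ-HFD alone. The V1 subunits lie mostly to the right of 0 in both panels.

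Whether the models differed was tested directly, as the STZ-HFD response minus the db/db response. *Ctss* and *Lamp2* passed, both with a negative difference, and 0 members passed with a positive one, where 0.822% and 0.952% of all genes did. Both differences were past 1 in size, as were 0.816% of all genes in that direction. Over the 37 members 27 differences were negative and 10 positive (51.5% and 48.5% of all genes), and 5 and 3 had an unadjusted p under 0.05 (8.94% and 8.35%). For *Ctss* the difference was -2.22 (SE 0.50, adjusted p = 0.0341), from 1.42 in db/db and -0.80 in STZ-HFD. For *Lamp2* it was -1.38 (SE 0.31, adjusted p = 0.0333), from 0.94 and -0.44. *Lamp2* had 119, 233, 195 and 179.6 CPM in Con+Veh and 102, 103, 134 and 177 in STZ-HFD, groups that overlapped through Con+Veh replicate 1. Neither gene passed within a model.

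Of the other negative differences, those of *Atp6v0d2* (-1.40, SE 0.95, adjusted p = 0.486) and *Atp6v0a4* (-1.32, SE 0.54, adjusted p = 0.212) were the largest in size and did not pass. The largest positive differences were those of *Ctsd* (1.39, SE 0.38, adjusted p = 0.0659) and *Tfeb* (1.29, SE 0.42, adjusted p = 0.119). *Tfeb* had 6.25, 3.32, 3.85 and 7.12 CPM in Con+Veh and 5.76, 9.94, 5.87 and 4.85 in STZ-HFD, with overlap (0.35, SE 0.30). With the GC trend removed, the difference was -2.02 for *Ctss* (adjusted p = 0.047) and -1.01 for *Lamp2* (adjusted p = 0.0797). Each of the calls on *Ctss* and *Lamp2* was kept in 5 of the 14 fits that left out a library. Both were lost without db/+ replicate 2 or 3, db/db replicate 1 or 3, Con+Veh replicate 3 or 4, or STZ-HFD replicate 2 or 3, that of *Ctss* also without STZ-HFD replicate 4 and that of *Lamp2* also without db/+ replicate 1 (adjusted p up to 0.153 and 0.167). Without STZ-HFD replicate 1 both were kept, at -2.31 and -1.34.

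**Figure D5:**
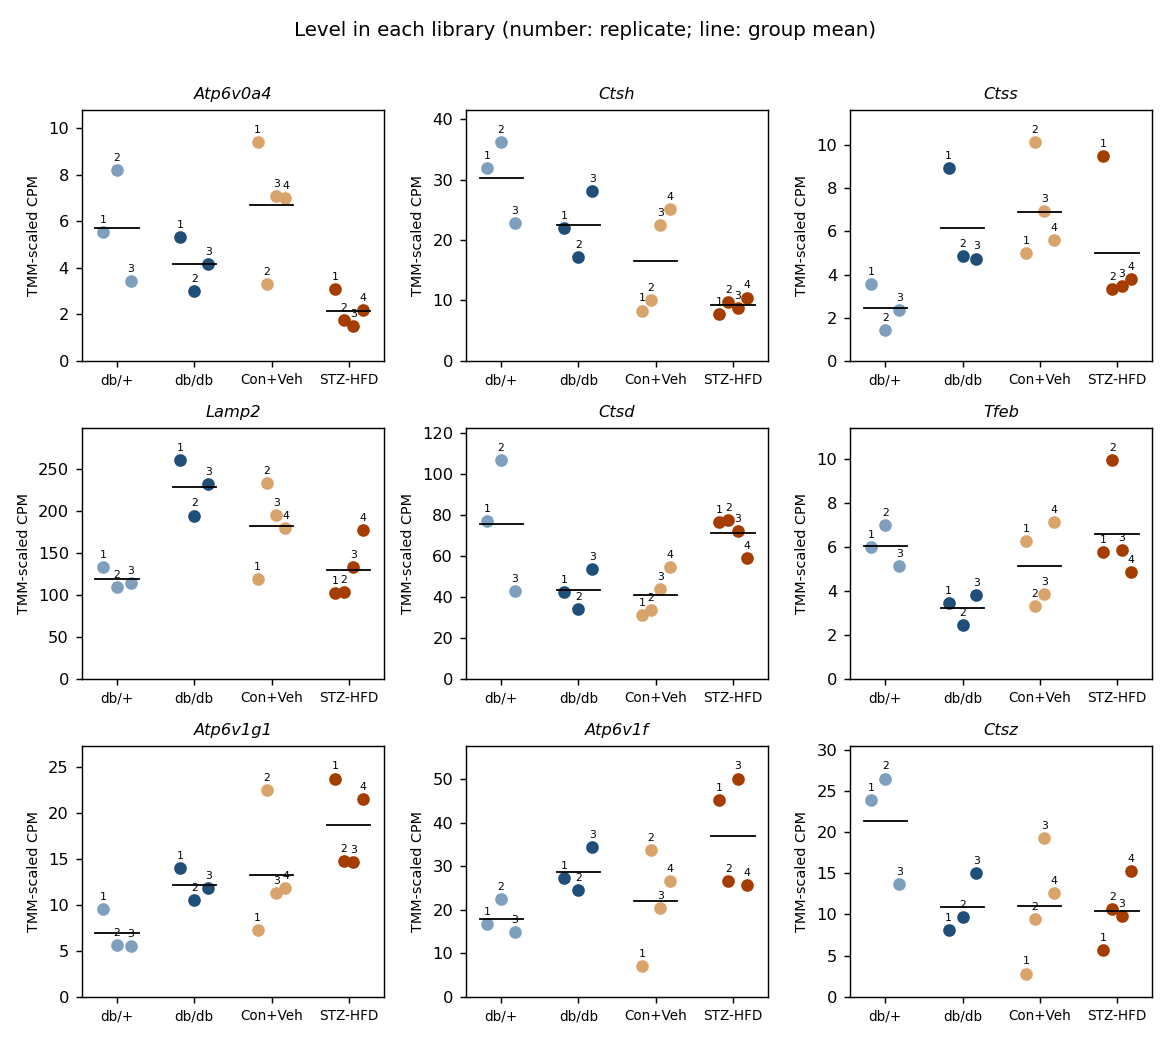
TMM-scaled CPM (vertical axes, from 0) of 9 members in each library, by group, with replicate numbers beside the points and group means as lines. *Atp6v0a4* is lower in all 4 STZ-HFD than in all 4 Con+Veh libraries, and *Ctsd* higher in all 4. *Ctss*, *Lamp2*, *Tfeb*, *Atp6v1g1* and *Atp6v1f* do not overlap between db/db and db/+.

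The proteins that assemble with the V-ATPase or share its compartment were followed by lists outside the symbol rule. Shares over all genes tested were 1.42% passing as higher and 0.508% as lower in db/db, and 1.65% and 1.8% in STZ-HFD. Of 10 partners of the V-ATPase tested, 1 passed in db/db and 0 in STZ-HFD. It was *Ncoa7*, a TLDc-domain protein that binds the V-ATPase, with 6.69 CPM on average in db/+ and 14.2 in db/db (log2 1.10, SE 0.22, adjusted p = 0.0232), and its response also differed between the models (-1.33, adjusted p = 0.0373). *Tcirg1* did not pass, with 53.4, 42.9 and 66.6 CPM in db/+ and 37.7, 70.6 and 58.1 in db/db (0.04, SE 0.32, adjusted p = 0.956). In the other cohort it had 84.5, 38.8, 27.9 and 28.6 CPM in Con+Veh against 14.02, 45.0, 36.9 and 31.5, with wide overlap.

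Of 42 other lysosomal hydrolases and their cofactors, 3 passed as lower and 0 as higher in STZ-HFD, and 32 had lower estimates (median -0.32). None of the 3 reached a log2 fold change of 1 in size. Of all genes tested, 52.8% had lower estimates in STZ-HFD. In db/db 27 of the 42 were lower (median -0.08, against 52.7% of all genes), and 1 passed as lower. The split of this list without quality weights was not taken. The 3 that passed in STZ-HFD were *Gm2a*, the activator of ganglioside breakdown (-0.90, SE 0.21, adjusted p = 0.0268), *Manba*, a β-mannosidase (-0.98, SE 0.26, adjusted p = 0.0484), and *Hgsnat*, an enzyme of heparan sulfate breakdown. Of 25 other lysosomal membrane and sorting genes, *Scarb2*, which carries glucocerebrosidase to lysosomes, was higher in db/db (1.30, SE 0.29, adjusted p = 0.0338). *Laptm5*, a lysosomal membrane protein of hematopoietic cells, was lower in STZ-HFD (-1.002, SE 0.23, adjusted p = 0.0276).

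Of 5 cathepsin inhibitors tested, 0 passed within a model, and the response of *Cst3*, cystatin C, differed between the models (-1.72, adjusted p = 0.0484). Its mean was 1927 CPM in db/+ and 3552 in db/db, and 1439 in Con+Veh and 809 in STZ-HFD. Of 19 regulators of the factors, 2 were higher in STZ-HFD. These were *Rragd*, a Rag GTPase that recruits TFEB to lysosomes (1.06, SE 0.27, adjusted p = 0.0360), and *Fnip1*, a partner of folliculin (1.04, SE 0.27, adjusted p = 0.0400).

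Markers of other cells were followed as lists beside the members. Of all genes tested, 1.8% passed as lower and 1.65% as higher in STZ-HFD, and 0.508% as lower and 1.42% as higher in db/db. All 11 macrophage markers had lower estimates in STZ-HFD (median -1.02), and 4 passed, *Cd68*, *Lyz2*, *C1qb* and *C1qc*. Their sum was 160 to 329 CPM in Con+Veh and 114 to 196 in STZ-HFD, and 120 to 189 in db/+ and 139 to 265 in db/db. Con+Veh replicate 3, with the largest quality weight (3.05), had the highest of these sums. Mean CPM of *Adgre1* (3.03 against 2.31) and *Fcgr1* (1.44 against 0.81) was higher in STZ-HFD than in Con+Veh, and that of the other markers of this list lower. The split of this list without quality weights was not taken. *Ctss* and *Laptm5* are themselves abundant in macrophages. Of 8 osteoclast markers tested, which include *Tcirg1*, 0 passed in either model. Chondrocyte and annulus markers had lower estimates in STZ-HFD in 9 of 9, of which 7 passed (median -1.53, sum 1758 to 4067 CPM in Con+Veh and 806 to 1585 in STZ-HFD). In db/db 7 of 9 were lower, of which 0 passed (median -0.42). Their sum there was 14511 to 25102 CPM in db/+ and 6821 to 16363 in db/db. Skeletal muscle markers were higher in STZ-HFD in 10 of 10 estimates, of which 5 passed, and lower in db/db in 10 of 10, of which 1 passed. Their sum was 8320 to 10718 CPM in Con+Veh, 9326 to 23604 in STZ-HFD, 4558 to 8771 in db/+ and 2953 to 5032 in db/db. None of the markers on these lists was at 0 in all libraries. Antigen-presenting cell markers had lower estimates in STZ-HFD in 5 of 5, of which 1 passed (*H2-Aa*, -1.15, adjusted p = 0.0372). In db/db 4 of 5 were lower, of which 0 passed. Osteoblast and osteocyte markers had lower estimates in STZ-HFD in 6 of 8, of which 2 passed, *Ibsp* and *Alpl*. In db/db 7 of 8 were lower, of which 0 passed (median -0.79). Nucleus pulposus markers had lower estimates in db/db in 5 of 6, of which 0 passed (median -1.43), and in STZ-HFD in 2 of 6. Adipocyte markers had higher estimates in db/db in 7 of 9, of which 4 passed, and in STZ-HFD in 9 of 9, of which 2 passed. Of 3 neutrophil and myeloid precursor markers tested, 0 passed within a model and 1, *Lcn2*, in the difference, where their median was -3.82. The part of these cells in the results on the members was not tested.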

How the data were processed

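RNA of pooled caudal discs was amplified with a SeqPlex kit before sequencing. The authors aligned reads with STAR to the mouse genome with Ensembl release 101 annotation and counted them per gene with Subread featureCounts, and the deposited gene table holds raw counts. They also deposited estimated counts per transcript from Salmon, which are not whole numbers and were rounded and summed per gene for 1 alternative. That transcript data lacks some main isoforms and let 14693 genes be tested, so results from transcript totals may differ for that reason. The strand setting of the counting is not given in the sources used here, so that reads of overlapping antisense genes cannot be told apart. Ribosomal RNA took 28.1 to 39.7% of the counts in the db cohort and 44.4 to 60.2% in the other.

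Of 55774 lines, 287 repeated an identifier and were used once. Genes with CPM above 1 in 3 or more libraries were scaled by TMM (edgeR 4.0.16) and fitted with voomWithQualityWeights (limma 3.58.1, R 4.3.3), with 1 mean per group over the 14 libraries. Contrasts were db/db against db/+, STZ-HFD against Con+Veh, and their difference, with Benjamini-Hochberg adjustment over 16915 genes and a threshold of 0.05. The main fit held no batch term, and any difference in handling between the cohorts cannot be told apart from the models. P-values rest on 1 library per mouse. Members with an adjusted p under 0.05, and the 5 with the largest absolute log2 fold change in each model, are given in full. Pathway genes are named where they passed and were among the 5 largest of their list. *Hgsnat*, *Ctsd*, marker genes and other members were named after their values were seen. The members, lists and tests were chosen with earlier results of these data known. GC content came from GENCODE M21 transcripts and promoters from RefSeq (GRCm38.p6). Alternatives were DESeq2 1.42.0, edgeR's quasi-likelihood test, other weights, scaling and filters, GC removal in 20 bins, ribosomal RNA removal, a replicate block and omission of libraries. Scripts were tested on simulated data. Isoforms were not analysed here.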

Additional observations from a re-analysis of the deposited data

Results flagged for a closer look

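In STZ-HFD, *Ctss* was far higher in replicate 1 (9.497 CPM) than in the other 3 libraries (3.34 to 3.78 CPM). Its gap to the nearest value was 0.929 of the range of the group, above Dixon's 95% critical value for 4 samples. It was the only such sample among 74 groups of 4 examined, of which chance alone would single out about 1 in 20. The library is the one that held counts for 1584 receptor genes.

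The responses of *Ctss* and *Lamp2* differed between the models in the test of the difference itself. For *Ctss* the log2 difference, STZ-HFD minus db/db, was -2.22 (limma adjusted p = 0.0341), and for *Lamp2* it was -1.38 (limma adjusted p = 0.0333). Of 11 macrophage markers, 10 had a difference of the same sign and 2 passed, *Mrc1* and *Lyz2*. The part of macrophages in both results was not tested.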

How the results depend on the processing

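No member was higher in STZ-HFD under any setting run. In db/db the count of members higher, 0 as reported, was 2 with RLE size factors, with no filter, with ribosomal RNA genes removed and without both libraries whose names share an ending, 1 with each model fitted alone, and 0 to 2 when 1 library was left out. The count lower in STZ-HFD, 2 as reported, was 0 with the quasi-likelihood test, without quality weights, with filterByExpr, with no filter, from transcript totals and without the same-ending libraries, 1 with DESeq2, with each model alone and with ribosomal RNA removed, and 0 to 2 when 1 library was left out. The count differing between models, 2 as reported, was 0 with the quasi-likelihood test and without quality weights, 1 from transcript totals, with the GC trend removed (alone or also without STZ-HFD replicate 1, a setting chosen after seeing the data) and without the same-ending libraries, and 0 to 2 when 1 library was left out. The cause of these changes was not tested. Over 13 alternatives *Atp6v0a4* in STZ-HFD stayed between -2.04 and -1.56 and passed in 6, and *Ctsh* between -1.32 and -0.61 and passed in 3.

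With the replicate number as a block within each cohort, 9 members were higher and 3 lower in db/db, 0 lower in STZ-HFD and 0 differed. Over all genes this fit passed 1742 higher and 1669 lower in db/db, against 240 and 86. Same-numbered libraries did not deviate together on average (mean r -0.091 in the db cohort and -0.111 in the other). These few correlations cannot tell whether such libraries share more than a number.

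Over all genes, the counts passing as higher and lower were 279 and 305 in STZ-HFD as reported, 6 and 23 with the quasi-likelihood test and 3 and 16 without quality weights. Some estimates that did not pass changed sign. *Ctsz* in STZ-HFD was 0.27 without quality weights and 0.32 without Con+Veh replicate 3, and *Atp6v0d2* in db/db was -0.057 without db/db replicate 2. When 1 library was left out, these ran from -0.585 to 0.323 for *Ctsz* in STZ-HFD and from -0.057 to 0.972 for *Atp6v0d2* in db/db. Among members not given in full, *Atp6v0b*, *Atp6v0e2*, *Ctsb*, *Ctsa* and *Tfe3* turned from lower to higher in db/db with the GC trend removed, and *Atp6ap2* in STZ-HFD without STZ-HFD replicate 1. List splits without quality weights were added after seeing the data.

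With 3 or 4 mice per group and 3 counts worth up to 0.163 CPM, smaller changes of low members were not detectable at this depth.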
